A study of Homo sapiens with 8 samples.

Results

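The RAS-ERK feedback genes are 10 genes that are switched on when the RAS-ERK cascade is active and that in turn dampen it or carry its signal into transcription. They were followed by symbol in tumours that T24 cells, a line long used as a model of human bladder cancer with HRAS activated by mutation, formed in mice. The members were DUSP4, DUSP5, DUSP6, SPRY1, SPRY2, SPRY4, SPRED1, SPRED2, ETV4 and ETV5, and all 10 were found among the 58302 genes of the count table and passed the filter on low counts, as did 18973 genes in all. The study set 4 DDR1 tumours, from T24 cells made to overexpress the collagen receptor DDR1, against 4 control tumours from T24 cells without enforced DDR1, measured by RNA sequencing of whole tumours, which also hold cells of the mouse host. Every tumour of both groups therefore descends from the same HRAS-mutant line. The labels do not name the vector, the promoter that drives DDR1, the number of clones, the mouse strain, the age of the animals or the time of growth. Nor do they say that each library came from its own animal, so the spread behind every p-value is that between libraries and may be technical. In the titles, DDR1 replicates 2, 3 and 4 share a prefix, as do control replicates 3 and 4 (R69_2). The prefix of control replicate 2, R69, has the same root, and the labels do not say whether these controls are related. All DDR1 titles name lane 8, control replicates 1 and 2 name lane 7 and control replicates 3 and 4 name none, so lane and group cannot be told apart.

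RAS proteins signal through RAF, MEK and ERK, a chain of kinases, and ERK activity turns on its own inhibitors as transcripts. The DUSP genes among the members encode phosphatases that remove the activating phosphates from MAP kinases. Sprouty (SPRY) and SPRED proteins sit higher in the cascade and restrain the activation of RAS and RAF. ETV4 and ETV5 are transcription factors of the ETS family whose transcription rises with ERK activity and is held down by the repressor CIC (capicua). The transcript levels of these genes are often read as a summary of ERK output in tumours with mutated RAS or RAF.

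The promoters of 6 members were held by RefSeq's promoter table (GRCh38.p14), which lists 250 bases before to 50 after each annotated start. They are DUSP6, SPRY1, SPRY2, SPRY4, SPRED1 and SPRED2, with 10 annotated starts between them. DUSP4, DUSP5, ETV4 and ETV5 are only named. Each promoter was searched on both strands for the CIC octamers TGAATGAA, TGAATGGA, TCAATGAA and TCAATGGA, and for the ETS hexamer CCGGAA, none of which contains another. The promoter of DUSP6 is shown because it was the most abundant member and the only one of these 6 with a CIC octamer. Those of SPRY2 and SPRY4 are shown because these genes belong to the same family and are compared with each other further on. Each is written 5′ to 3′ along the gene with motif matches in capitals.
DUSP6, minus strand, chr12:89352452-89352751: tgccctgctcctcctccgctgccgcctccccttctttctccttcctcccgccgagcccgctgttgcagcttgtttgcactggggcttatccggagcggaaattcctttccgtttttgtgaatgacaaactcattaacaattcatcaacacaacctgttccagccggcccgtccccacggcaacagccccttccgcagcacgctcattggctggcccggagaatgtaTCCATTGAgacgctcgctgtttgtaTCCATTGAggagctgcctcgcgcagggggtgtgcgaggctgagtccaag
SPRY2, minus strand, chr13:80341077-80341376, the first of 3 annotated starts: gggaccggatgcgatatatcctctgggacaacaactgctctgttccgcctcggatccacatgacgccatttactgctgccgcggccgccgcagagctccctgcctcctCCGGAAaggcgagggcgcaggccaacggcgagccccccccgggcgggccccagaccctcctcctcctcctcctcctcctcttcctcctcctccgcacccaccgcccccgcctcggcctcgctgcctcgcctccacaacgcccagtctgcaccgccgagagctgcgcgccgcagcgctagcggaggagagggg
SPRY4, minus strand, chr5:142324198-142324497: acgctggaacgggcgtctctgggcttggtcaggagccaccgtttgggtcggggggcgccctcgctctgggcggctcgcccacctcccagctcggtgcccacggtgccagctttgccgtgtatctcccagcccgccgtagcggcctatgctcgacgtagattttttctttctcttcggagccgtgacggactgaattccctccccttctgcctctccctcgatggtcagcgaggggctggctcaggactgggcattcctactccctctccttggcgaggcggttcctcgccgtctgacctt
DUSP6 held 2 CIC octamers, both as TCCATTGA, the reverse complement of TCAATGGA, beginning 24 bases before and 1 base after the annotated start. At least 1 such octamer stood in 3.77% of the 35116 promoters of the table and 2 or more stood in 0.327%. The ETS hexamer stood in 17.2% of all promoters, and among the members' promoters in 1 of SPRY2 and 1 of SPRY1. The SPRY4 promoter held neither motif. These are matches of letters, not sites shown to be bound, and which start T24 uses was not measured.

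Library totals ran from 20789449 to 32271016 counts in DDR1 tumours and from 13716285 to 22736649 in control tumours, so each member had between 115 and 12968 counts in every library. Levels are given as CPM, counts relative to library size, after TMM scaling, which adjusts library sizes for composition. DDR1 itself stood at 159, 343, 426 and 808 CPM in DDR1 tumours, replicates 1 to 4, and at 138, 110, 210 and 149 CPM in control tumours. The library labelled DDR1 replicate 1 thus lay inside the control range. The log2 fold change of DDR1 was 1.52 (edgeR, unadjusted p = 0.00612, adjusted p = 0.9998; exact permutation p = 0.0571). The 6 markers listed for T24 (KRT7, KRT8, KRT18, KRT19, EPCAM and VIM) summed to 1243 to 3643 CPM in DDR1 tumours and 1572 to 2295 CPM in control tumours. Markers of other cells were also summed. They are human genes, while the cells of the host are of mouse, so these sums do not measure how many host cells a tumour held. The 6 leukocyte markers summed to 0.699 to 1.05 CPM in DDR1 tumours and 0.516 to 1.55 CPM in control tumours. The 6 fibroblast markers summed to 3.64 to 38.6 CPM in DDR1 tumours and 8.98 to 43.9 CPM in control tumours, and the 5 endothelial markers to 9.06 to 75.9 CPM in DDR1 tumours and 8.64 to 55.8 CPM in control tumours. The 4 erythroid markers reached at most 0.344 CPM in DDR1 tumours and 0.125 CPM in control tumours, with HBB at 0 in all 8 libraries. The 13 mitochondrially encoded genes summed to 14546 to 19512 CPM in DDR1 tumours and 9722 to 21189 CPM in control tumours. In bulk tumours, fewer cells of a type and less RNA per cell cannot be told apart.

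Levels were compared between genes per kilobase of merged exon, the annotated exons of all transcripts of a gene. This order therefore depends on the annotation, since the transcripts in use were not measured. DUSP6 was by far the most abundant member, at 102 ± 16.4 CPM per kb (SD, n = 8 libraries). It stood above DUSP5, the next member, in 8 of 8 libraries. DUSP5 averaged 14.5 ± 5.74 CPM per kb, followed by ETV5 at 10.8 ± 2.60, SPRY2 at 10.4 ± 1.85, DUSP4 at 9.34 ± 6.11, SPRY4 at 8.60 ± 2.48, SPRED2 at 8.22 ± 2.18 and SPRED1 at 8.14 ± 2.68 CPM per kb. Neighbours within these 7 were not set apart, since each neighbouring pair kept its order in only 3 to 5 of 8 libraries. SPRY1 at 3.18 ± 0.936 and ETV4 at 2.69 ± 0.768 CPM per kb were the lowest, and SPRED1 stood above SPRY1 in 8 of 8 libraries. On the same scale HRAS, the RAS gene that is mutated in T24, averaged 39.7 ± 7.15 CPM per kb and NRAS 19.0 ± 2.28.

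The comparison asks of these genes whether enforced DDR1, a receptor tyrosine kinase, shifts the read-out of a cascade that is already activated by mutant HRAS. No member passed edgeR's quasi-likelihood test between DDR1 and control tumours at an adjusted p under 0.05 over all 18973 genes. As 0% of all genes passed, DDR1 itself included, the 0 of 10 says nothing particular about the members, and the 95% intervals in the plot of fold changes show which differences these libraries allow. None of the 10 reached an unadjusted p under 0.05 either, against 4.17% of all genes, and for none did the groups fail to overlap, against 2.40% of all genes. Of the 10 log2 fold changes, 5 were above 0 and 5 below, with a median of -0.04, against 49.5% above 0 and a median of -0.0030 over all genes. They ran from -0.35 for SPRED2 to 0.46 for DUSP4, with every adjusted p at 0.9998. DESeq2 called 15 genes (0.0791% of those tested), none of them a member.

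**Figure D1:**
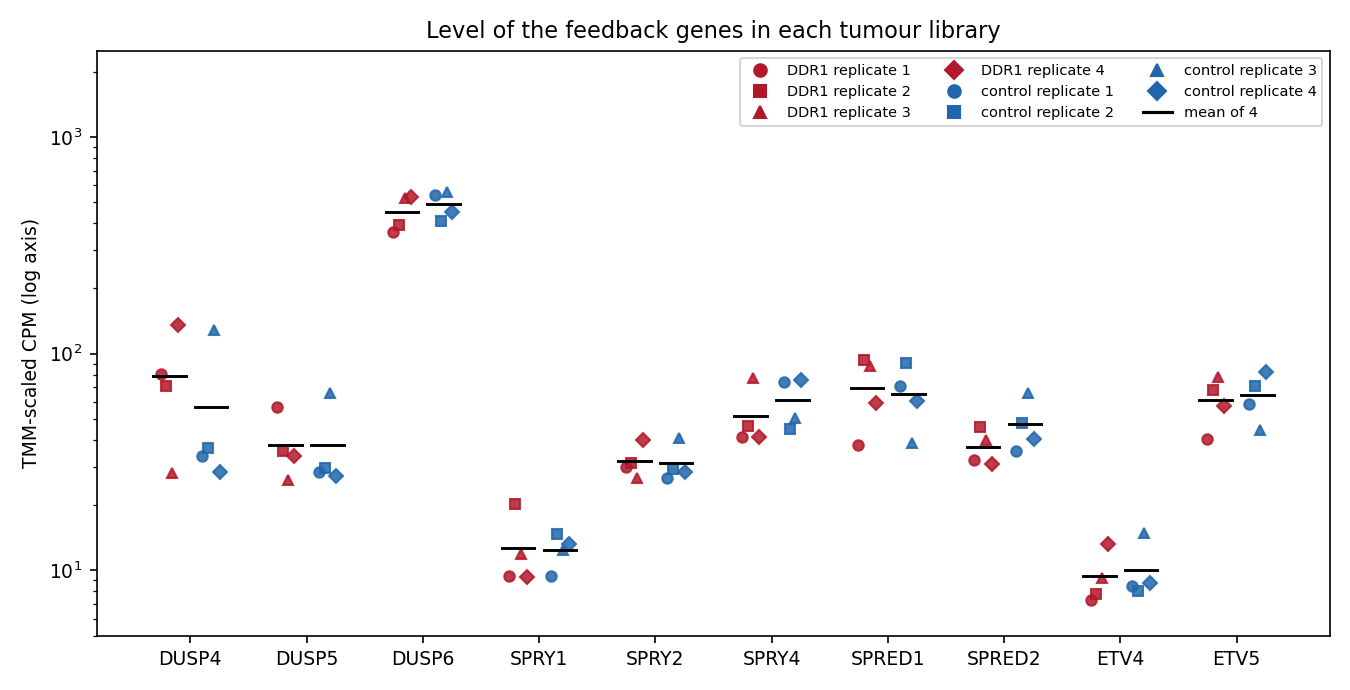
TMM-scaled CPM of the 10 members (log axis) in each library, with DDR1 tumours in red left of control tumours in blue and a black bar at the mean of 4. The groups overlap for every gene, and DUSP6, at 366 to 557 CPM, lies above all others.

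The phosphatases differed most from each other in how steady they were. DUSP6 encodes a cytoplasmic phosphatase that is selective for ERK (ENSG00000139318, GRCh38 chromosome 12, 89347232 to 89353271, minus strand), and its gene model overlaps the opposite-strand gene AC024909.2. Its level was 366, 391, 522 and 529 CPM in DDR1 tumours and 543, 408, 557 and 449 CPM in control tumours. The groups overlapped over most of their range, and the highest library was only 1.52 times the lowest. The means were 452 ± 85.5 CPM in DDR1 tumours and 489 ± 72.4 CPM in control tumours (SD, n = 4 each) and the log2 fold change was -0.11 (standard error 0.19). The 95% interval of the fold ran from 0.686 to 1.24 (edgeR, unadjusted p = 0.565; exact two-sided permutation p = 0.486).

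DUSP4, a nuclear phosphatase of ERK and of the stress kinases (ENSG00000120875, chromosome 8, 29333064 to 29350668, minus strand), was the most variable member. It stood at 80.3, 70.7, 28.1 and 136 CPM in DDR1 tumours and at 33.7, 36.8, 129 and 28.4 CPM in control tumours. Each group thus held a high library, at 136 CPM in DDR1 tumours and 129 CPM in control tumours, and a low one, and the highest was 4.82 times the lowest. Its log2 fold change was 0.46 (standard error 0.57), and the interval of the fold ran from 0.571 to 3.33 (edgeR, unadjusted p = 0.433; exact permutation p = 0.457). The summed T24 markers were likewise highest in DDR1 replicate 4 and lowest in DDR1 replicate 3, at 3643 and 1243 CPM, but at 1828 CPM control replicate 3 lay between the other controls; their part in the spread of DUSP4 was not tested. The size of the fold change depended on single libraries: without control replicate 3 the log2 fold change was 1.25 (unadjusted p = 0.0219, adjusted p = 0.951), and without DDR1 replicate 4 it was 0.09.

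DUSP5, a nuclear phosphatase selective for ERK (ENSG00000138166, chromosome 10, 110497838 to 110511544, plus strand), measured 56.8, 35.5, 26.1 and 33.7 CPM in DDR1 tumours, against 28.5, 29.8, 66.1 and 27.4 CPM in control tumours. A single library stood high in each group, DDR1 replicate 1 and control replicate 3. The log2 fold change was 0.0028 (standard error 0.34, edgeR unadjusted p = 0.994, exact permutation p = 0.8286), and it ran from -0.26 without DDR1 replicate 1 to 0.41 without control replicate 3.

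Among the Sprouty genes, SPRY4 (ENSG00000187678, chromosome 5, 142310427 to 142326455, minus strand, overlapped by SPRY4-AS1 on the other strand) was 41.3, 46.3, 77.1 and 41.1 CPM in DDR1 tumours and 74.2, 45.01, 50.4 and 76.0 CPM in control tumours. Its values fell into a lower set of 41.1 to 50.4 CPM and an upper set of 74.2 to 77.1 CPM, with 1 DDR1 tumour and 2 control tumours in the upper set. The log2 fold change of -0.25 (standard error 0.26, edgeR unadjusted p = 0.356, exact permutation p = 0.314) was -0.51 without DDR1 replicate 3 (unadjusted p = 0.0493, adjusted p = 0.872) and -0.13 without control replicate 4.

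SPRY2 (ENSG00000136158, chromosome 13, 80335976 to 80340951, minus strand) held 30.1, 31.4, 26.7 and 39.97 CPM in DDR1 tumours and 26.8, 29.4, 40.9 and 28.4 CPM in control tumours. It was about as steady as DUSP6, with the highest library 1.53 times the lowest, and the interval of its fold, 0.755 to 1.38, spanned 1 (log2 fold change 0.03, standard error 0.19, edgeR unadjusted p = 0.884). SPRY1 (ENSG00000164056, chromosome 4, 123396795 to 123403760, plus strand) held 9.41, 20.3, 11.95 and 9.28 CPM in DDR1 tumours, against 9.45, 14.7, 12.5 and 13.3 CPM in control tumours. Its highest value was in DDR1 replicate 2, and its log2 fold change of 0.03 (standard error 0.29, edgeR unadjusted p = 0.918) was -0.29 without that library.

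SPRED proteins bring neurofibromin, the RAS inactivator encoded by NF1, to the membrane. SPRED2 (ENSG00000198369, chromosome 2, 65310851 to 65432637, minus strand) had the smallest p of the members. It stood at 32.3, 46.0, 40.02 and 30.8 CPM in DDR1 tumours and at 35.7, 48.1, 65.8 and 40.2 CPM in control tumours. Only control replicate 3 lay clearly above the other 7 libraries. The log2 fold change was -0.35 (standard error 0.22, edgeR unadjusted p = 0.151, exact permutation p = 0.2), and it was -0.15 without control replicate 3. SPRED1 (ENSG00000166068, chromosome 15, 38252326 to 38357249, plus strand) measured 37.9, 93.1, 87.5 and 59.4 CPM in DDR1 tumours and 70.7, 90.6, 38.7 and 60.3 CPM in control tumours. Its lowest libraries were DDR1 replicate 1 and control replicate 3, 1 in each group, and its log2 fold change was 0.09 (standard error 0.32, edgeR unadjusted p = 0.777).

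Neither of the ETS factors passed the test. ETV4 (ENSG00000175832, chromosome 17, 43527844 to 43579620, minus strand, overlapped by DHX8 on the other strand) was 7.28, 7.80, 9.25 and 13.3 CPM in DDR1 tumours and 8.51, 8.04, 14.8 and 8.74 CPM in control tumours. DDR1 replicate 4 and control replicate 3 stood above the other 6 libraries. ETV5 (ENSG00000244405, chromosome 3, 186046308 to 186110318, minus strand) was 40.6, 67.8, 78.0 and 57.5 CPM in DDR1 tumours and 58.4, 71.3, 44.5 and 82.6 CPM in control tumours. Here control replicate 3 was the lowest control, the reverse of its place for ETV4. The log2 fold changes were -0.10 for ETV4 (standard error 0.29, edgeR unadjusted p = 0.743) and -0.07 for ETV5 (standard error 0.25, edgeR unadjusted p = 0.772). In the reference transcripts 1.53% of the 75-base runs of ETV5 also occur in its same-strand neighbour DGKG, and 0.0851% of those of SPRED1 in ACTBP13, while the other 8 members share none with another gene.

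**Figure D2:**
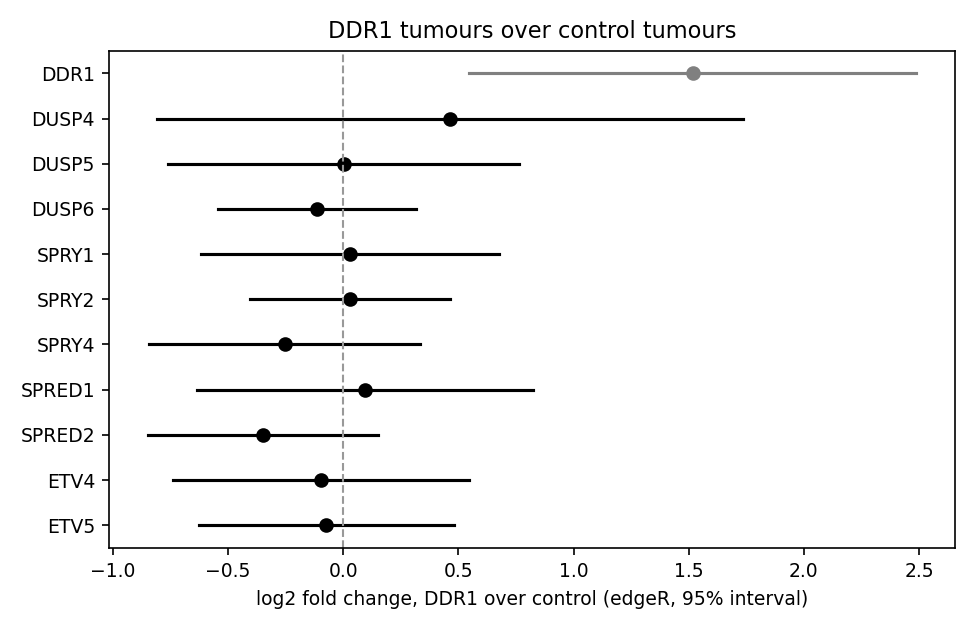
Log2 fold change of DDR1 tumours over control tumours from edgeR, with its 95% interval (horizontal lines), for the 10 members in black and for DDR1 in grey. The interval of every member spans 0, while that of DDR1 runs from 0.55 to 2.49.

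The members differed in how much they varied among libraries, and their highest and lowest libraries were not the same. DUSP4 had a coefficient of variation of 65.3% over the 8 libraries, at or above that of 95.6% of the 11894 tested genes with a mean of at least 5 CPM. DUSP5 had 39.5% and SPRED1 32.9%, while SPRY2 had 17.7% and DUSP6 16.2%, at or above 32.2% and 24.97% of those genes. Control replicate 3 held the highest level of DUSP5, DUSP6, SPRY2, SPRED2 and ETV4, and DDR1 replicate 4 that of DUSP4. The library labelled DDR1 replicate 1 held the lowest level of DUSP6, SPRED1, ETV4 and ETV5 and the second highest of DUSP5.

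**Figure D3:**
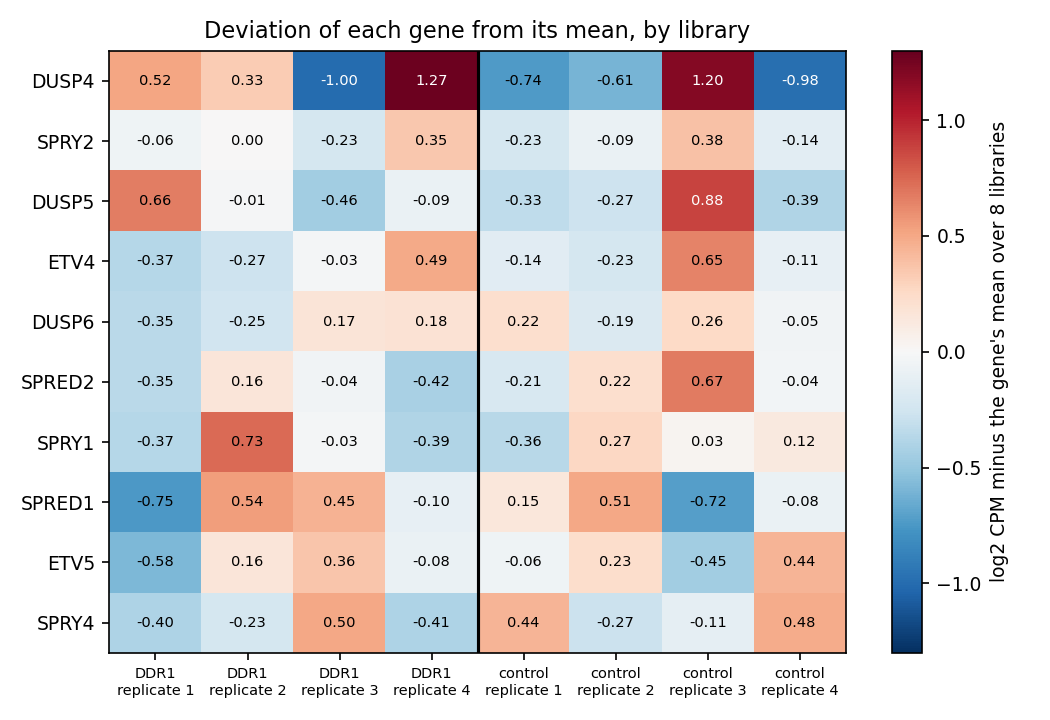
Log2 CPM of each member minus its mean over the 8 libraries, with DDR1 tumours left of the line and control tumours right of it; red is above and blue below the mean. DUSP4 runs from -0.995 in DDR1 replicate 3 to 1.27 in DDR1 replicate 4, and in control replicate 3 DUSP4 (1.20) is high where SPRED1 (-0.72) is low.

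Of the 45 pairs of members, 23 had a Pearson correlation of log2 CPM above 0 over the 8 libraries and 22 below 0. DUSP4 and SPRY2 ran together across the 8 libraries, with r = 0.92 (exact permutation p = 0.000818, adjusted p = 0.0368 over 45 pairs) and Spearman's rho = 0.93 (exact permutation p = 0.00223). It was the only pair, 2.22% of the 45, that passed, and with Spearman's rho none did (adjusted p = 0.0989 for this pair). The correlation was 0.81 without DDR1 replicate 4 and control replicate 3, and 0.94 with each group centred on its mean. The relations of SPRY4 to both did not pass. To DUSP4, r was -0.77 (exact permutation p = 0.0471, adjusted p = 0.244) and rho -0.83. To SPRY2, r was -0.62 (exact permutation p = 0.111, adjusted p = 0.427) and rho -0.67.

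ETV5 was high where DUSP5 was low, with r = -0.89 (exact permutation p = 0.00570, adjusted p = 0.128 over 45 pairs) and rho -0.83. ETV5 ran with SPRED1, with r = 0.81 (exact permutation p = 0.0151, adjusted p = 0.187) and rho 0.67. Neither passed, and both rest in part on DDR1 replicate 1 and control replicate 3, without which r was -0.56 and 0.23. These libraries also had the lowest fibroblast and endothelial sums of their groups, 3.64 and 9.06 CPM in DDR1 replicate 1 and 8.98 and 8.64 CPM in control replicate 3, whose part in these relations was not tested. DUSP6 and ETV4 had r = 0.75 (exact permutation p = 0.0233, adjusted p = 0.187) and rho 0.86. Without DDR1 replicates 1 and 2 their r was 0.63. Between ETV4 and ETV5, the related factors, r was -0.27, and 0.77 without DDR1 replicate 4 and control replicate 3. Pairs with r of at least 0.8 numbered 3 of 45, where 2.18% of all pairs of genes with a mean of at least 5 CPM reached it, and pairs at or below -0.8 numbered 2 of 45, against 1.88%. All pairs share the same 8 libraries and their depth, and each group holds 4 libraries, too few for a correlation within it.

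**Figure D4:**
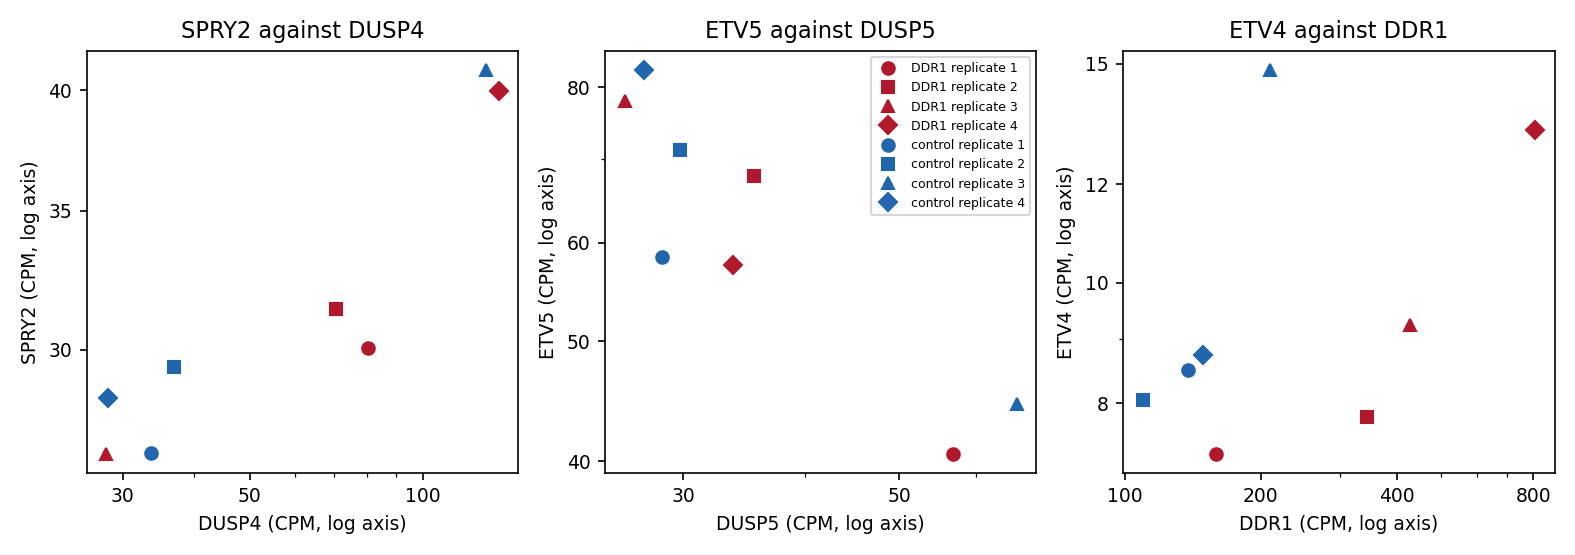
CPM (log axes) of SPRY2 against DUSP4, of ETV5 against DUSP5 and of ETV4 against DDR1, with 1 point per library, DDR1 tumours in red and control tumours in blue. Over all libraries SPRY2 runs with DUSP4 and ETV5 runs against DUSP5. Within each group the 4 tumours keep the same order for DDR1 and ETV4. In the DDR1 tumours this is also the order of falling library totals. Relations within a group were not tested.

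Neither HRAS nor DDR1 levels tracked the members in a way that passed. HRAS stood at 67.7, 72.2, 63.3 and 93.4 CPM in DDR1 tumours and at 76.4, 63.3, 59.7 and 93.3 CPM in control tumours, and its correlations with the members ran from -0.60 for SPRED2 to 0.30 for ETV5. Those of DDR1 ran from -0.28 for SPRED2 to 0.49 for ETV4. Of these 20 relations 0 (0%) passed after adjustment over them (smallest unadjusted permutation p = 0.116, smallest adjusted p = 0.969), and 0 had an unadjusted p under 0.05. With each group centred on its mean, DDR1 had r = 0.84 with ETV4 and 0.80 with DUSP6. These were the largest of the 20 centred values, were picked out after they were seen and carry no test. The other centred values of DDR1 ran from -0.17 for DUSP5 to 0.59 for SPRY2.

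The genes whose levels were most like DUSP6 over the 8 libraries, among 11893 genes with a mean of at least 5 CPM, were HSPA5 (r = 0.96), SHB (0.94), AC234772.2 (0.93), HEBP1 (0.92) and MTMR11 (0.90). As the highest of 11893 values over only 8 libraries, these correlations were selected for their size and carry no test. HSPA5 averaged 422 CPM in DDR1 tumours and 426 CPM in control tumours. The member nearest to DUSP6, ETV4, stood at rank 140 of that order, and SPRY4, the next, at rank 1587.

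The rest of the cascade likewise gave no calls: 0 of the 58 tested genes of 6 pathway lists passed over all genes, of 60 listed. Among 16 RAS genes and their regulators, 6 had a log2 fold change above 0 and 10 below (median -0.02). HRAS had 0.02 and NRAS -0.11, and NF1, the most abundant in CPM of this list and a gene with pseudogene copies that make its counts uncertain, had -0.16. Of 11 tested RAF, MEK and ERK kinases and scaffolds, 9 were above 0 and 2 below (median 0.12). MAP2K2, which encodes a MEK kinase, was picked out after its values were seen. Of the 58 tested genes it was the only 1 whose groups did not overlap, against 2.40% of all tested genes. It stood at 40.5, 40.40, 41.0 and 72.9 CPM in DDR1 tumours and at 37.9, 33.9, 39.1 and 40.36 CPM in control tumours. Only DDR1 replicate 4 lay clearly above the other libraries, and the groups were parted by 40.40 against 40.36 CPM. Its log2 fold change of 0.37 did not pass (edgeR, unadjusted p = 0.123).

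The 6 tested phosphatases of MAP kinases outside the members had 3 values above and 3 below 0 (median 0.002), and DUSP1, an immediate early phosphatase, averaged 56.8 ± 27.4 CPM in DDR1 tumours and 45.3 ± 19.0 CPM in control tumours. Among 6 other feedback and family genes, 5 were below 0 (median -0.34), led in abundance by ERRFI1, an inhibitor of the EGF receptor, at 284 ± 89.3 CPM in DDR1 tumours and 363 ± 128 CPM in control tumours (log2 fold change -0.35, edgeR unadjusted p = 0.282). Of the 9 other ERK output genes, 4 were above and 5 below 0 (median -0.16). Among them were PHLDA1 at -0.29, the cyclin gene CCND1 at 0.03, and the ephrin receptor genes EPHA2 at -0.16 and EPHA4 at -0.34, none of which passed. FOS, picked out after its values were seen, was the only gene of the 6 lists with an unadjusted p under 0.05 (log2 fold change 0.95, edgeR unadjusted p = 0.0246, adjusted p = 0.9998). Over all tested genes 4.17% had an unadjusted p under 0.05, so a single such gene does not set the lists apart. FOS averaged 31.9 ± 13.2 CPM in DDR1 tumours and 16.6 ± 6.89 CPM in control tumours. Its groups overlapped, at 19.5 to 44.6 CPM in DDR1 tumours and 12.5 to 26.8 CPM in control tumours (exact permutation p = 0.0857).

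The 10 transcription factors of ERK target genes had 4 values above and 6 below 0 (median -0.05), and ELK4, the most abundant, averaged 145 ± 21.1 CPM in DDR1 tumours and 160 ± 27.3 CPM in control tumours. CIC, the repressor whose octamer is found in the DUSP6 promoter, held 20.1, 35.8, 42.2 and 71.7 CPM in DDR1 tumours and 26.4, 28.3, 42.1 and 46.8 CPM in control tumours. Its groups overlapped (log2 fold change 0.24, standard error 0.36, edgeR unadjusted p = 0.519), and it was named after its values were seen.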

How the data were processed

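Per the labels' protocols, tumour RNA was selected with poly-T beads and sequenced as paired ends of 150 bp; strand marking is not mentioned. Per the submitters' processing notes, FastQC 0.11.9, Trim Galore 0.6.4, STAR 2.7.5, RSEM 1.3.1 and the build GRCh38 were used; no source used here gives the annotation or any removal of mouse reads, and reads of mouse cells can align to conserved human genes.

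The deposited expected counts are the authors' estimated counts per gene (26.5% of values above 0 were not whole) and were rounded here. The authors also deposited TMM-normalized log2 values, whose offset from log2 counts above 100 varied within a library by an SD of at most 0.00246; they served 1 alternative, limma-trend. The files of single libraries hold the same log2 values and were not used.

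Symbols, places and merged exon lengths came from GENCODE 29 (GRCh38), which matched 58039 of 58302 genes. Counts were filtered with filterByExpr (minimum count 10) and tested with edgeR 4.0.16's quasi-likelihood test (R 4.3.3, limma 3.58.1), DDR1 over control, 8 libraries, no covariate, Benjamini-Hochberg over 18973 genes, threshold 0.05. Single genes also had exact permutation tests over libraries, for which 0.0286 is the smallest p. For log2 CPM the prior count was 2. The scripts were tested on simulated counts. Intervals cover the spread between libraries. Groups come from the condition label and replicate numbers follow accession order. Alternatives were DESeq2 1.42.0, limma-trend, limma-voom, RLE and upper quartile scaling, 2 other filters, leaving out libraries, summing libraries that share a title prefix, and other library sizes. In the sums, the prefixes R69 and R69_2 were kept apart. The members and lists were chosen with earlier results of these data known. Named genes are the members, DDR1, RAS genes, 4 ERK output genes, the most abundant gene of each of the 6 pathway lists and the 5 genes most like DUSP6; some genes under this rule are not reported here.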

Additional observations from a re-analysis of the deposited data

Results flagged for a closer look

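In 46 groups of 4 libraries (23 genes in DDR1 and in control tumours), 5 had a library set apart from the other 3 by a gap that was too large a share of the group's range under Dixon's 95% critical value; chance gives about 1 in 20. Of these 5, 3 were in control replicate 3: DUSP4 at 129 CPM, DUSP5 at 66.1 CPM and ETV4 at 14.8 CPM, each above the other controls. SPRY4 stood at 77.1 CPM in DDR1 replicate 3, against 41.1 to 46.3 CPM in the other DDR1 tumours. DUSP1 stood at 97.6 CPM in DDR1 replicate 4, the library with the highest DDR1 level.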

How the results depend on the processing

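No member passed over all genes under any of the 19 other settings, and edgeR and limma called 0 genes in each; at an unadjusted p under 0.05 edgeR had 791 genes, limma-voom 738, limma-trend 972 and DESeq2 918. DESeq2 called 15. No paired analysis was possible because the labels give no replicate numbers. The direction of 7 members turned with the setting. Of 10 members, 1 to 6 had a log2 fold change above 0, depending on the setting. SPRY1 was -0.022 with limma-voom, -0.018 with limma-trend, -0.014 without the 2 controls of lane 7 and -0.033 after summing libraries of the same title prefix. DUSP5 was -0.0062 with the 5 CPM filter. Without the 2 controls of lane 7, DUSP5 was -0.30, DUSP4 -0.0012 and SPRY2 -0.12. Without the 2 controls that name no lane, SPRED1 was -0.22, ETV4 0.18 and DUSP4 1.16 (unadjusted p = 0.0710). SPRED1 was -0.21 with prefixes summed. With 1 library left out, DUSP5 ran from -0.26 to 0.41, SPRY1 from -0.29 to 0.16, SPRY2 from -0.084 to 0.18, SPRED1 from -0.089 to 0.30, ETV4 from -0.29 to 0.16 and ETV5 from -0.21 to 0.079. DUSP6, SPRY4 and SPRED2 stayed below 0 in every setting run. The exact permutation p with 1 library left out ran from 0.286 to 0.943 for DUSP5, 0.143 to 1 for SPRY1, 0.343 to 1 for SPRY2, 0.486 to 0.943 for SPRED1, 0.429 to 0.971 for ETV4 and 0.429 to 0.943 for ETV5. Between members, the 1 pair that passed became 0 with Spearman's rho, and without the 2 farthest libraries r was 0.079 for DUSP5 with SPRED1 (-0.82 with all) and -0.81 for SPRY2 with ETV4 (0.83 with all). The cause was not tested. With 4 libraries a group the interval of the fold of DUSP4 reached 3.33, so these libraries leave a wide range of differences possible for it.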

Other observations

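Within the 4 DDR1 tumours, DUSP6, ETV4 and CIC stood in the same order as DDR1. With DDR1 at 159, 343, 426 and 808 CPM, ETV4 was at 7.28, 7.80, 9.25 and 13.3 CPM and DUSP6 at 366, 391, 522 and 529 CPM. Library totals fell along that order, at 32271016, 31105184, 26549100 and 20789449 counts in DDR1 replicates 1 to 4. In these 4 tumours the order of DDR1 and that of depth cannot be told apart, and the part of depth was not tested. The order was not particular to these genes, since DUSP1, ELK1, ERF and ETS2 of the pathway lists and the T24 marker KRT7 kept it too. The share of all genes that keep it was not counted. In the controls the library with the most DDR1, replicate 3 at 210 CPM, also held the most ETV4 and DUSP6. That library held the least DUSP1, at 21.5 CPM. ETV4 kept the order of DDR1 in all controls, though replicates 1, 2 and 4 differed little, at 8.04 to 8.74 CPM. DUSP6 did not keep the order in the other controls, and CIC was highest in control replicate 4, at 46.8 CPM. This was noticed after the values were seen, 4 libraries a group are too few for a correlation, and pooled over 8 libraries the r of DDR1 was 0.49 with ETV4 and 0.34 with DUSP6, or 0.17 and -0.098 without DDR1 replicates 3 and 4.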
